A study of Mus musculus with 24 samples.

Results

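The 10 genes described here are Nfe2l2, which encodes the transcription factor NRF2, and 9 genes known as its targets or partners in antioxidant defence, namely Hmox1, Nqo1, Gclc, Gclm, Slc7a11, Txnrd1, Srxn1, Osgin1 and Sqstm1. They were chosen by name with earlier results of these data known, so their counts beside those of all genes are descriptions. Their Ensembl identifiers were taken from the GRCm38 annotation, and the 10 genes are among 55487 listed and 14541 tested. RNA was sequenced in 24 libraries from C2C12 myotubes, multinucleated muscle cells fused in culture from a single mouse myoblast line, at day 5 of differentiation. Myotubes grown under 5 % O2 spent 2 h under 5 % or 1 % O2 and were collected without stimulation (5 % CTRL and 1 % CTRL) or right after repeated bouts of electrical stimulation that make them contract (5 % STIM and 1 % STIM). Each of these 4 groups had 6 libraries. The study's methods describe the 6 as biological replicates, and the p-values measure the spread between them. These methods place the 2 h before stimulation and mention a change of medium before and after it. Whether unstimulated myotubes had the same medium changes and total time is not stated. Such differences cannot be told apart from stimulation itself.

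NRF2 is made continuously and is held low by KEAP1, which hands it to a ubiquitin ligase for destruction. Oxidants and electrophiles modify KEAP1, NRF2 then enters the nucleus, pairs with small MAF proteins and binds antioxidant response elements, from which BACH1 can displace it. Its targets make glutathione, reduce thioredoxin, repair oxidised peroxiredoxins and break down heme and quinones, and contracting muscle, which makes hydrogen peroxide, is a tissue in which this system has long been studied. Much of NRF2 control takes place on the protein, which RNA counts do not show.

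Promoter sequences of 8 of the 10 genes were found in the RefSeq table (build GRCm38.p6). Those of Hmox1 and Gclc were not in it. The 250 bases before each start were searched on both strands for the core of the antioxidant response element, TGACNNNGC, for the AP-1 site TGACTCA, whose reverse is TGAGTCA, and for the hypoxia response element core ACGTG. The first of these can overlap the AP-1 site, and none of the promoters searched for the 8 genes held both as written here. A form of the core with TGAG in place of TGAC was not searched for. The response element core was present in 10.2 % of the 32851 promoters in the table, the AP-1 site in 4.46 % and the ACGTG core in 16.6 %. Among the 10 genes the response element core was found for Nfe2l2, 240 bases before the start, for Gclm, 134 bases before it, and for the second of the 3 starts of Txnrd1, 92 bases before it. The AP-1 site was found in the promoter of Srxn1, 102 and 45 bases before the start, and in that of Osgin1, 97 bases before it. The Srxn1 site 45 bases before the start is followed by gc, and the Osgin1 site is preceded by gc. Both thus spell TGAGTCAGC, in Osgin1 on the other strand, so a core with TGAG would match there. The ACGTG core was found in that of Gclm, 67 bases before the start. A form with GCGTG was not searched for, and its share in all promoters was not counted. The stretches of Txnrd1, Srxn1 and Osgin1 printed below hold GCGTG or its reverse CACGC. None of these letters were found for Nqo1, Slc7a11 and Sqstm1 in this window. The 5 stretches of 100 bases that hold these matches to the response element core or the AP-1 site are shown. Each is written 5′ to 3′ on the strand of the gene, with the match in capitals.
Nfe2l2 (chr2:75704814-75704913, minus strand): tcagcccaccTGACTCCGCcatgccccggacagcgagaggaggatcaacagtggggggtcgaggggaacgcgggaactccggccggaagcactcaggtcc
Gclm (chr3:122245377-122245476, plus strand): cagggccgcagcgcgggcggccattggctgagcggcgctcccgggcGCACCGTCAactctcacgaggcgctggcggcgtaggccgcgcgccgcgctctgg
Txnrd1 (chr10:82859068-82859167, plus strand): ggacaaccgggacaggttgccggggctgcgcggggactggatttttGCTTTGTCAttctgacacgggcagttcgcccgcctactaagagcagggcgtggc
Srxn1 (chr2:152105405-152105504, plus strand): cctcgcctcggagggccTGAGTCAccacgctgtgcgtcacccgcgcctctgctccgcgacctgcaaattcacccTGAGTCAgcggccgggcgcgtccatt
Osgin1 (chr8:119437004-119437103, plus strand): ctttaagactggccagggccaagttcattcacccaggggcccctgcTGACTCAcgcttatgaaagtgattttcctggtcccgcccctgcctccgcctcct
The stretch of Nfe2l2 lies over an annotated exon of the neighbouring gene E030042O20Rik, and the other 4 lie over no annotated exon. A match is a description of letters and does not show that a protein binds there.

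The values are read counts per gene divided by the size factor of the library, called normalized counts below, and libraries held 26541858 to 28173745 reads. Log2 fold changes were fitted by limma on log2(normalized count + 1) over the 4 groups, a scale that understates the change of low genes, and p-values were adjusted by Benjamini-Hochberg over the 14541 genes. A gene is called higher or lower at an adjusted p under 0.05. The 9 markers of myotubes were high in each library, with summed normalized counts of 470349 to 513740 in 5 % CTRL, 415766 to 468255 in 1 % CTRL, 408575 to 450597 in 1 % STIM and 432055 to 498056 in 5 % STIM. Under 1 % O2, 6 of the 9 were lower and none higher, both with and without stimulation. Of 5 markers of cycling cells, with sums of 3210 to 5932, 3 were higher and 1 lower in 1 % CTRL than in 5 % CTRL, and of 4 markers of undifferentiated myoblasts, with sums of 1638 to 4089, 2 were higher and 2 lower. Summed markers of endothelial cells (4 genes), macrophages (4) and adipocytes (3) did not exceed 25.7, 89.1 and 6.29, with Ptprc and Adgre1 of macrophages and Plin1 of adipocytes at or near 0. Their part in the values of the 10 genes was not tested, and in bulk RNA fewer cells of a type and less RNA per cell cannot be told apart. Replicate 1 of 1 % CTRL stood apart in that its log2 values, taken from the mean of the 24 libraries, rose by 0.0945 for each 2-fold step in exon length, against −0.0367 to 0.055 in the other 23 libraries. All 10 genes were measured in each library with at least 84 reads, and all 10 passed the filter on low values.

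Among unstimulated myotubes, 7 of the 10 genes were lower under 1 % O2 and none was higher. Of all genes tested, 30.5 % were called lower and 29.4 % higher in this comparison. The largest of these differences was in Gclc, with 0.520 times the level of 5 % CTRL, followed by Osgin1, Txnrd1 and Gclm, while the calls of Sqstm1, Srxn1 and Nfe2l2 were smaller. Hmox1, Nqo1 and Slc7a11 were not called. The median log2 fold change of the 10 genes was −0.21, beside 0.0015 over all genes tested. For 5 of the 10 the libraries of 1 % CTRL lay below all those of 5 % CTRL, against 19.9 % of all genes. With libraries rescaled to the same total, the median of all genes moved to 0.08, 23.2 % of all genes were called lower and 39.0 % higher, and 5 of the 10 genes were called, all lower.

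Stimulation under 5 % O2 gave 8 genes higher and none lower, against 9.44 % of all genes called higher and 12.0 % lower. Hmox1 and Slc7a11 rose most, followed by Sqstm1, and the libraries of 5 genes did not overlap, against 5.64 % of all genes. The median of the 10 was 0.22, beside −0.0076 over all genes. Rescaled to the same total, 12.8 % of all genes were higher and 7.79 % lower, and 8 of the 10 were still called higher. Stimulation under 1 % O2 gave 7 higher and none lower, against 11.5 % of all genes higher and 10.8 % lower, or 14.7 % and 8.89 % after the rescaling, which left 7 of the 10 called. The order of the genes was different there, with Sqstm1 first, then Gclc and Gclm. For 6 genes the libraries of 1 % STIM lay above all those of 1 % CTRL, against 5.29 % of all genes, and the median was 0.20, beside −0.0031.

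Among stimulated myotubes, 9 genes were lower under 1 % O2 than under 5 % O2 and none was higher, against 28.4 % of all genes called lower and 29.0 % higher. The median of the 10 was −0.42, beside −0.00083 over all genes, and the libraries did not overlap for 7 genes, against 18.7 %. The same rescaling left 7 of them called, with 21.9 % of all genes called lower and 37.6 % higher. The response to stimulation itself differed between the O2 levels, by the interaction term, for 4 of the 10 genes, against 11.3 % of all genes, 5.88 % with a larger value under 1 % O2 and 5.43 % with a smaller one. It was smaller under 1 % O2 for Hmox1 and Slc7a11 and larger for Gclc and Gclm. These comparisons share groups of libraries, so their counts are not independent of each other.

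**Figure D1:**
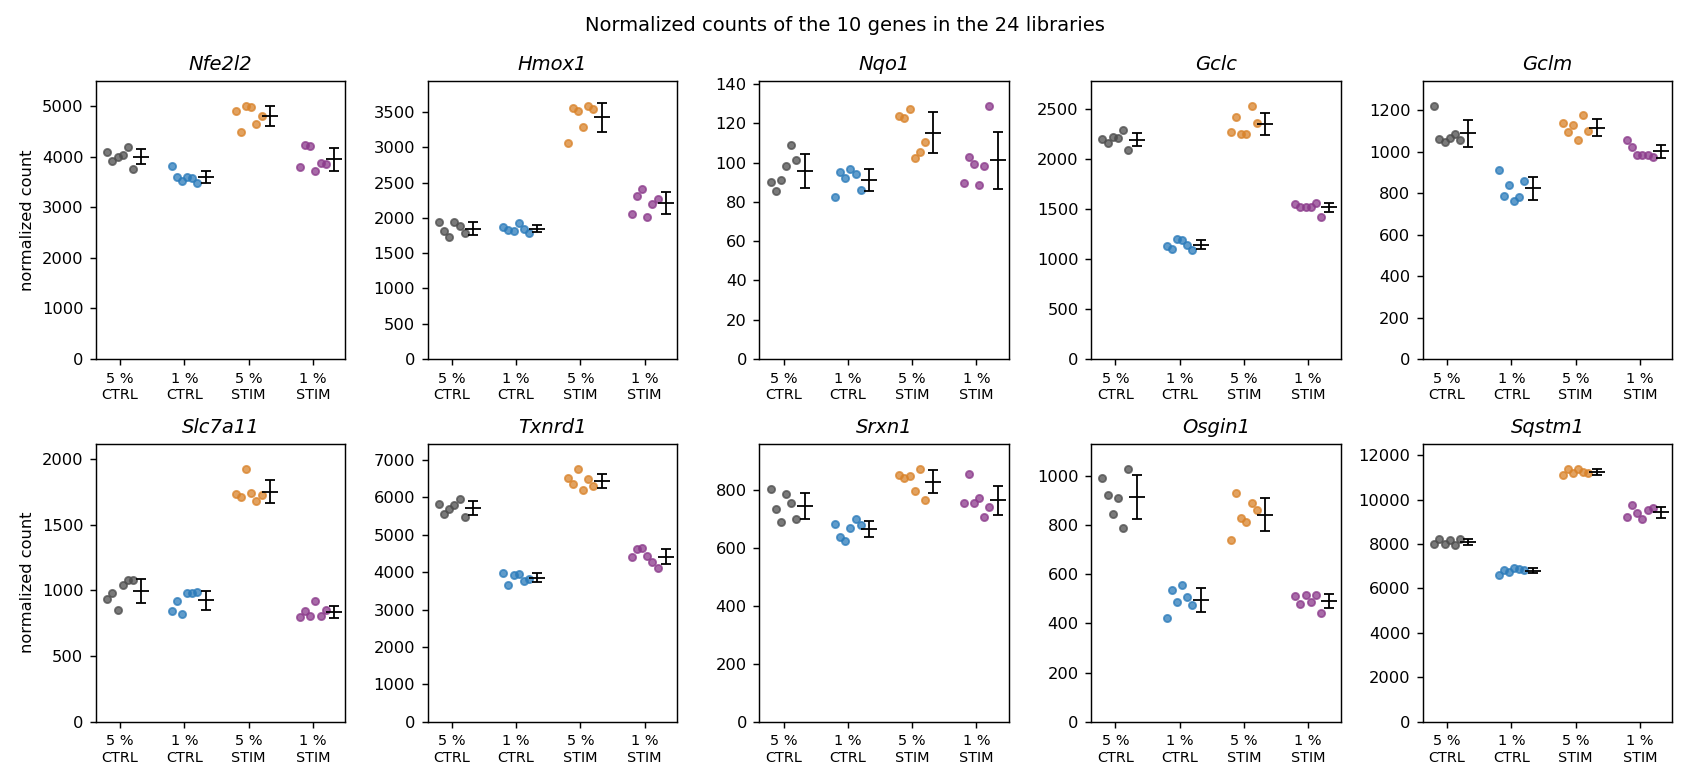
Normalized counts (y axis, from 0) of the 10 genes in the 4 groups (x axis), with a point for each of the 6 libraries of a group and the mean ± SD beside them. Hmox1 and Slc7a11 stand highest in 5 % STIM, whereas Gclc, Txnrd1 and Osgin1 are lower in both 1 % O2 groups than in both 5 % O2 groups.

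Nfe2l2 lies on chromosome 2 from 75675513 to 75704641, on the minus strand. Its normalized counts ran from 3764 to 4193 (median 4013) in 5 % CTRL and from 3489 to 3812 (median 3588) in 1 % CTRL. They ran from 4493 to 4997 (median 4855) in 5 % STIM and from 3725 to 4229 (median 3858) in 1 % STIM. All 5 % STIM libraries lay above those of the other 3 groups, and the libraries of 1 % CTRL and 5 % CTRL overlapped through replicate 1 of 1 % CTRL, the highest of its group. Nfe2l2 fell by 0.15 on the log2 scale (SE 0.03, limma adjusted p = 0.000303) from 5 % CTRL to 1 % CTRL, a call that was lost when libraries were rescaled to the same total, where the fold change was −0.07 and the adjusted p = 0.0685. Stimulation raised it by 0.26 under 5 % O2 (SE 0.03, limma adjusted p = 3.35e-07) and by 0.13 under 1 % O2 (SE 0.03, limma adjusted p = 0.00475). Between the stimulated groups it was lower under 1 % O2, with a log2 fold change of −0.29 (SE 0.03, limma adjusted p = 1.09e-08). The 2 responses to stimulation differed by −0.13 (95 % interval −0.23 to −0.04), with an adjusted p = 0.0711 from limma, which passed 0.05 with array weights (0.0252), with the same total (0.0438) and without the length trend (0.0498).

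Gclc encodes the catalytic subunit of glutamate-cysteine ligase, the rate-limiting enzyme of glutathione synthesis, and lies on chromosome 9 from 77754535 to 77794485. Normalized counts of Gclc were 2086 to 2292 (median 2206) in 5 % CTRL and 1094 to 1198 (median 1136) in 1 % CTRL. They were 2248 to 2527 (median 2317) in 5 % STIM and 1425 to 1559 (median 1521) in 1 % STIM. Both 1 % O2 groups lay wholly below both 5 % O2 groups, and 1 % STIM wholly above 1 % CTRL. The log2 fold change was −0.94 (SE 0.03, limma adjusted p = 4.85e-22) between the unstimulated groups and −0.63 (SE 0.03, limma adjusted p = 3.92e-17) between the stimulated ones. Stimulation raised Gclc by 0.41 under 1 % O2 (SE 0.03, limma adjusted p = 1.67e-11), or 373 normalized counts. Under 5 % O2 the rise was 0.10 (SE 0.03, limma adjusted p = 0.0410) with overlapping libraries, and this call was lost with no filter on low genes (adjusted p = 0.0885). The difference between these responses was 0.31 (SE 0.05, limma adjusted p = 2.44e-05).

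Gclm encodes the modifier subunit, which makes the same ligase more efficient. The gene, on chromosome 3 from 122245557 to 122270732, is one of the genes with the response element core in the promoter. Normalized counts of Gclm were 1046 to 1219 (median 1065.5) in 5 % CTRL and 762 to 910 (median 813) in 1 % CTRL, without overlap. In 5 % STIM they were 1056 to 1179 (median 1115) and in 1 % STIM 977 to 1059 (median 985). The 1 % CTRL libraries were thus the lowest of all, and the highest library of 1 % STIM reached just into the range of 5 % STIM. Gclm fell by 0.40 on the log2 scale under 1 % O2 without stimulation (SE 0.04, limma adjusted p = 4.98e-10). Stimulation raised it by 0.29 under 1 % O2 (SE 0.04, limma adjusted p = 3.19e-06), while under 5 % O2 the fold change was 0.04 (95 % interval −0.05 to 0.12, adjusted p = 0.609). Its interaction of 0.25 (SE 0.06, limma adjusted p = 0.00508) had the sign of that of Gclc. Between the stimulated groups the value was −0.15 (SE 0.04, limma adjusted p = 0.00234), and this call was lost with libraries rescaled to the same total (−0.08, adjusted p = 0.0806). Exons of Gm17494 on the opposite strand and of Gm6061 cover 8.58 % of the exon length of Gclm, and reads of both strands may have been counted together. The means of Gm17494 were 82.6 to 97.0 in the 4 groups and Gm6061 was at 0.

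Slc7a11 encodes the cystine carrier of system xc-, which brings in the cysteine that limits glutathione synthesis, and it is known as a target of both NRF2 and ATF4. The gene is on chromosome 3 from 49892526 to 50443614, on the minus strand. Normalized counts of Slc7a11 were 853 to 1081 (median 1009) in 5 % CTRL, 820 to 988 (median 951) in 1 % CTRL and 799 to 920 (median 825) in 1 % STIM. In 5 % STIM they were 1681 to 1922 (median 1726). The 6 libraries of 5 % STIM stood far above the other 18, which overlapped each other. Stimulation under 5 % O2 raised Slc7a11 by 0.82 on the log2 scale (SE 0.05, limma adjusted p = 1.05e-13), or 1.76-fold. Under 1 % O2 the value was −0.14 (95 % interval −0.25 to −0.03, limma adjusted p = 0.0636), which was not called. It was called lower without replicate 1 of 1 % CTRL (−0.16, limma adjusted p = 0.0262) and with array weights (−0.16, limma adjusted p = 0.0199). A block for the replicate number also gave a lower call. The interaction of −0.96 (SE 0.08, limma adjusted p = 6.92e-11) was the largest among the 10 genes in these data. Between the stimulated groups Slc7a11 was lower under 1 % O2 by −1.06 (SE 0.05, limma adjusted p = 1.61e-17), and between the unstimulated groups the value was −0.11 (95 % interval −0.22 to 0.0037, adjusted p = 0.0896).

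**Figure D2:**
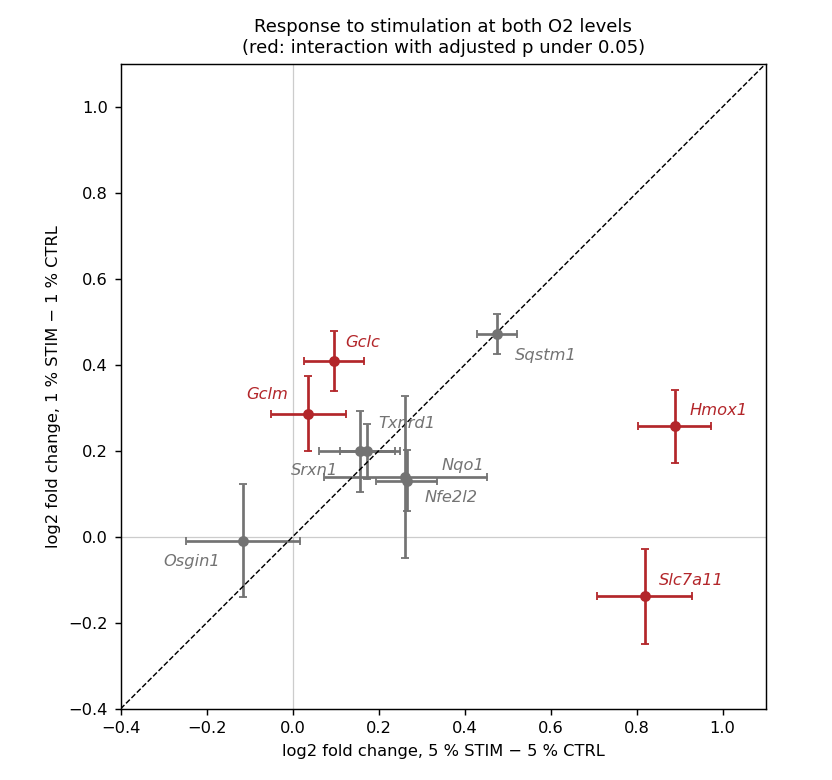
Log2 fold change on stimulation under 5 % O2 (x axis) against that under 1 % O2 (y axis) for the 10 genes, with 95 % intervals from limma and a dashed line where both are equal. Hmox1 (0.89 and 0.26) and Slc7a11 (0.82 and −0.14) lie below the line, Gclc (0.10 and 0.41) and Gclm (0.04 and 0.29) above it, and Sqstm1 (0.47 and 0.47) on it.

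Txnrd1 encodes cytosolic thioredoxin reductase, a selenoprotein that uses NADPH to reduce thioredoxin. The gene is on chromosome 10 from 82833951 to 82897712, and the response element core stands before its second start. Normalized counts of Txnrd1 were 5461 to 5943 (median 5739) in 5 % CTRL and 3661 to 3963 (median 3860) in 1 % CTRL. They were 6206 to 6756 (median 6433) in 5 % STIM and 4113 to 4658 (median 4409) in 1 % STIM. None of the 4 groups overlapped another, with 5 % STIM highest, then 5 % CTRL, 1 % STIM and 1 % CTRL. The difference by O2 was −0.57 without stimulation (SE 0.03, limma adjusted p = 3.15e-17) and −0.55 with it (SE 0.03, limma adjusted p = 1.34e-16). Stimulation raised Txnrd1 by 0.17 under 5 % O2 (SE 0.03, limma adjusted p = 6.87e-05) and by 0.20 under 1 % O2 (SE 0.03, limma adjusted p = 7.13e-06). The interaction was 0.02, with a 95 % interval of −0.07 to 0.11 (limma adjusted p = 0.781).

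Srxn1 encodes sulfiredoxin, which restores peroxiredoxins whose cysteine has been overoxidised, and its promoter holds the pair of AP-1 sites. The gene is on chromosome 2 from 152105516 to 152111376. Its normalized counts were 689 to 802 (median 743) in 5 % CTRL, 623 to 697 (median 672) in 1 % CTRL, 766 to 871 (median 842) in 5 % STIM and 706 to 853 (median 753) in 1 % STIM. The 1 % CTRL libraries lay below all those of 1 % STIM and 5 % STIM, and the other pairs of groups overlapped. Stimulation raised Srxn1 by 0.16 under 5 % O2 (SE 0.05, limma adjusted p = 0.0139) and by 0.20 under 1 % O2 (SE 0.05, limma adjusted p = 0.00148), with an interaction of 0.04 (95 % interval −0.09 to 0.18). The differences by O2 were −0.16 without stimulation (SE 0.05, limma adjusted p = 0.00322) and −0.12 with it (SE 0.05, limma adjusted p = 0.0290). Both were lost with libraries rescaled to the same total, with adjusted p-values of 0.133 and 0.386, and the second also with no filter (0.0585).

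Hmox1 encodes heme oxygenase 1, the inducible enzyme that opens the heme ring and releases iron, carbon monoxide and biliverdin. It lies on chromosome 8 from 75093621 to 75100589. Normalized counts of Hmox1 were 1724 to 1942 (median 1849) in 5 % CTRL and 1789 to 1931 (median 1833) in 1 % CTRL. They were 3067 to 3580.2 (median 3531) in 5 % STIM and 2014 to 2409 (median 2234) in 1 % STIM. The unstimulated groups overlapped closely, 1 % STIM lay above both of them, and 5 % STIM lay above all others. Stimulation raised Hmox1 by 0.89 on the log2 scale under 5 % O2 (SE 0.04, limma adjusted p = 5.89e-18), or 1.85-fold, and by 0.26 under 1 % O2 (SE 0.04, limma adjusted p = 1.16e-05), or 1.20-fold. In normalized counts the rises were 1576 and 364. The interaction was −0.63 (SE 0.06, limma adjusted p = 1.24e-09), and the stimulated groups differed by −0.63 (SE 0.04, limma adjusted p = 5.80e-15). Without stimulation the difference by O2 was 0.00, with a 95 % interval of −0.08 to 0.08 (limma adjusted p = 0.996), and its sign depended on the setting.

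Nqo1 encodes the quinone reductase that is often taken as the model NRF2 target, and it had the fewest reads of the 10 genes. It lies on chromosome 8 from 107388225 to 107403206, on the minus strand, and rested on 84 to 132 reads per library. Its normalized counts were 85.4 to 109 (median 94.7) in 5 % CTRL, 82.6 to 96.8 (median 93.2) in 1 % CTRL, 102 to 127 (median 117) in 5 % STIM and 88.6 to 129 (median 98.7) in 1 % STIM. The groups overlapped except for 5 % STIM, which lay above 1 % CTRL, and the highest library of all belonged to 1 % STIM. Stimulation under 5 % O2 raised Nqo1 by 0.26 (SE 0.09, limma adjusted p = 0.0394), and this call was lost with no filter (adjusted p = 0.0780), with DESeq2 (0.0567) and without the length trend (0.0703). Under 1 % O2 the value was 0.14 (95 % interval −0.05 to 0.33). The differences by O2 were −0.07 (95 % interval −0.26 to 0.12) without stimulation and −0.19 (95 % interval −0.38 to −0.0033, adjusted p = 0.0766) with it. These last 3 differences were not detectable at this depth and spread.

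Osgin1 encodes an oxidative stress-induced growth inhibitor. It lies on chromosome 8 from 119434124 to 119446256, and its promoter holds an AP-1 site. Its normalized counts were 788 to 1027 (median 916) in 5 % CTRL and 420.0 to 554 (median 495) in 1 % CTRL. They were 738 to 928 (median 843) in 5 % STIM and 442 to 514 (median 499.6) in 1 % STIM. The groups fell apart by O2 alone, with all 12 libraries under 1 % O2 below all 12 under 5 % O2. The log2 fold change by O2 was −0.88 without stimulation (SE 0.06, limma adjusted p = 1.87e-13) and −0.77 with it (SE 0.06, limma adjusted p = 5.08e-12). Stimulation gave −0.12 under 5 % O2 (95 % interval −0.25 to 0.02, adjusted p = 0.218) and −0.01 under 1 % O2 (95 % interval −0.14 to 0.12, adjusted p = 0.949), and the second of these changed sign with libraries rescaled to the same total.

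Sqstm1 encodes p62, the autophagy receptor that also binds KEAP1 and carries it to degradation. It lies on chromosome 11 from 50199366 to 50210827, on the minus strand, and was the highest of the 10 genes, with replicates that varied by 1.02 to 2.53 % (coefficient of variation). Its normalized counts were 7947 to 8245 (median 8086) in 5 % CTRL and 6628 to 6920 (median 6833) in 1 % CTRL. They were 11089 to 11378 (median 11223) in 5 % STIM and 9106 to 9738 (median 9452) in 1 % STIM. None of the 4 groups overlapped another, and both stimulated groups lay above both unstimulated ones. Stimulation raised Sqstm1 by 0.47 under 5 % O2 (SE 0.02, limma adjusted p = 1.54e-17) and by 0.47 under 1 % O2 (SE 0.02, limma adjusted p = 1.53e-17). The difference by O2 was −0.25 both without stimulation (SE 0.02, limma adjusted p = 2.00e-11) and with it (SE 0.02, limma adjusted p = 1.72e-11). The interaction was 0.00, with a 95 % interval of −0.07 to 0.06. Exons of Mrnip on the opposite strand cover 17.3 % of its exon length, and the means of Mrnip, 19.0 to 43.8 in the 4 groups, were far below those of Sqstm1.

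**Figure D3:**
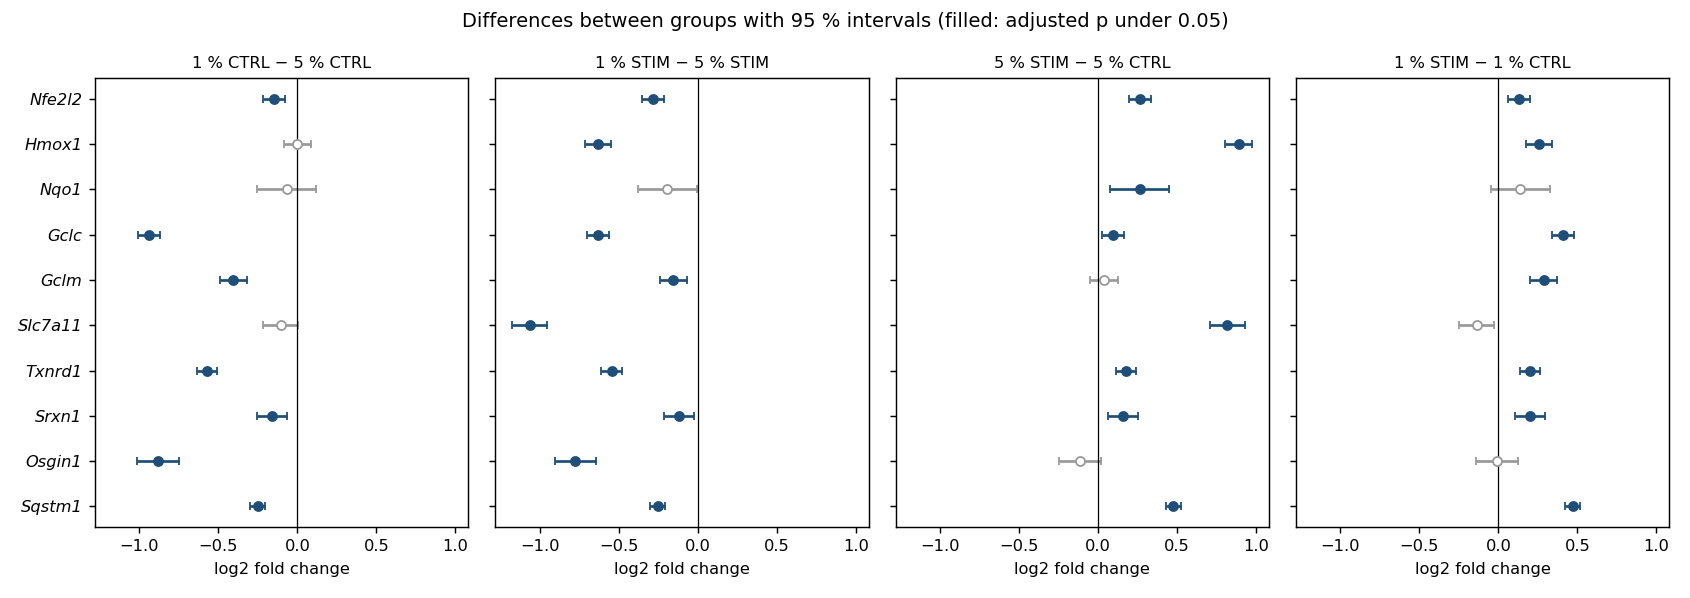
Log2 fold changes (x axis) of the 10 genes (rows) in 4 comparisons, with 95 % intervals from limma and filled points where the adjusted p is under 0.05. All called differences by O2 lie below 0 (7 of 10 without and 9 of 10 with stimulation), and all called responses to stimulation lie above 0 (8 of 10 under 5 % O2 and 7 of 10 under 1 % O2).

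Compared per kilobase of exon in 5 % CTRL, Sqstm1 was the most abundant with 2411 normalized counts per kilobase. Hmox1 (1055) and Nfe2l2 (1053) were next and differed by less than their spread, followed by Txnrd1 (806), Gclc (583), Osgin1 (342), Srxn1 (264), Gclm (173), Slc7a11 (71.4) and Nqo1 (61.7). On the same scale the gap between the ligase subunits was smaller under 1 % O2, where Gclc had 303 and Gclm 131 in 1 % CTRL. Slc7a11 had 126 per kilobase in 5 % STIM, close to the level of Gclm in 1 % CTRL.

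Over the 24 libraries, the 45 pairs of these genes had a median Pearson r of 0.704 on log2 values, from 0.275 for Osgin1 and Nqo1 to 0.975 for Txnrd1 and Gclc. After subtraction of each group's mean the median was 0.115, from −0.466 to 0.599. The 24 points share their 4 groups and their size factors, and these values are descriptions. Among the 11044 genes whose mean reached 100 in any group, those most like Nfe2l2 were Tbc1d31 (r = 0.952), Cttnbp2nl (0.951) and the amino acid carrier gene Slc7a2 (0.949). Those most like Hmox1 were the chemokine genes Ccl7 (0.963) and Ccl2 (0.959) and the NF-κB inhibitor gene Nfkbia (0.956). The means of Ccl2 were 1988 in 5 % STIM and 94.5 in 1 % STIM, beside 21.1 in 5 % CTRL and 9.33 in 1 % CTRL, the order of the stimulated groups in Hmox1 over a far wider range. Those most like Nqo1 were Fdps (0.798), Map1lc3b (0.785) and Tbc1d20 (0.763).

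The wider pathway was read from 9 lists with 123 genes tested, described by counts and medians beside those of all genes given above. These lists too were chosen with earlier results of these data known, so an excess over all genes is no independent result. In 1 % CTRL against 5 % CTRL, 29.4 % of all genes were higher and 30.5 % lower. Between the stimulated groups these shares were 29.0 % and 28.4 %. On stimulation 9.44 % were higher and 12.0 % lower under 5 % O2, and 11.5 % and 10.8 % under 1 % O2. Slc3a2, Chac1 and Sesn2 each stand in the ATF4 list and in another. The lists were not recounted with libraries rescaled to the same total, which moved the median of all genes to 0.08 between the unstimulated groups. Of 14 genes that control NRF2, 6 were higher and 6 lower in 1 % CTRL than in 5 % CTRL, with a median of −0.07. Keap1, the repressor, rose by 0.37 (from 1107 ± 68.6 to 1431 ± 90.4, SD, n = 6), whereas Bach1, the competitor at the response element, fell by 0.48 and Mafk, a small MAF partner, fell by 0.71. Maff, another small MAF gene, rose by 0.40. Stimulation left 11 of the 14 uncalled at each O2 level. The 3 called at each level were higher. Nfe2l1, the relative of NRF2 that controls proteasome genes, rose by 0.25 under 5 % O2 and 0.28 under 1 % O2. The small MAF gene Mafg rose by 0.23 and 0.14. The remaining called gene differed between the O2 levels and was Mafk under 1 % O2, which rose by 0.14. Between the stimulated groups 4 were higher and 6 lower under 1 % O2, with Keap1 at 0.38 and Bach1 at −0.52.

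Of 16 genes of glutathione supply and use, 2 were higher and 6 lower in 1 % CTRL than in 5 % CTRL, with a median of −0.03. Gsr, the reductase that regenerates glutathione, rose by 0.54 (from 451 ± 38.9 to 655 ± 29.5, SD, n = 6), opposite to Gclc and Gclm. Slc3a2, the heavy chain that carries Slc7a11 to the membrane, fell by 0.54, and Chac1, which degrades glutathione, fell by 0.44. Both Slc3a2 and Chac1 rose on stimulation, Slc3a2 by 0.54 under 5 % O2 and 0.40 under 1 % O2, and Chac1 by 1.05 and 1.15. On stimulation under 1 % O2, Slc3a2 was thus called higher and its light chain Slc7a11 was not. The difference between these genes was not tested. Between the stimulated groups Slc3a2 was lower under 1 % O2, with a log2 fold change of −0.68. In all, stimulation gave 2 higher and 1 lower at each O2 level, and the stimulated groups differed in 9 of the 16, with 4 higher and 5 lower under 1 % O2.

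Of 24 genes of conjugation and detoxification, 5 were higher and 7 lower without stimulation and 4 higher and 11 lower with it under 1 % O2, with medians of −0.07 and −0.13. Gsta4, a glutathione transferase for lipid aldehydes, fell by 0.39 and by 0.48 in these comparisons. Gsta1 was called on stimulation under 5 % O2, with 0.45, but 84.7 % of its exon sequence is shared with other genes, so its value is uncertain. Stimulation called few genes of this list, with 2 higher and 1 lower under 5 % O2 and none higher and 1 lower, Ugdh, under 1 % O2. Ugdh, which makes UDP-glucuronate, fell by 0.17 there.

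Of 19 thioredoxin and peroxiredoxin genes, 10 were higher and 2 lower in 1 % CTRL than in 5 % CTRL, with a median of 0.11, a direction opposite to that of Txnrd1 and Srxn1. The 2 that fell were Txnip, the thioredoxin inhibitor, by 0.60, and Txnrd3, a reductase gene related to Txnrd1, by 0.50. Msra, a methionine sulfoxide reductase gene, rose by 0.39 and Sesn1, a sestrin gene, rose by 0.39. On stimulation 4 were higher and 3 lower under 5 % O2, and 4 higher and 2 lower under 1 % O2. Sesn2 rose by 0.87 and 0.77 and Sesn1 by 0.55 and 0.90 in these comparisons, while Txnip fell by 0.42 and 0.17. The response of Sesn1 was larger under 1 % O2, with an interaction of 0.36 (limma adjusted p = 0.00167). Txn1, thioredoxin itself, rose by 0.23 under 5 % O2 (limma adjusted p = 0.0341).

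Of 7 genes of superoxide and peroxide removal, 2 were higher and 1 lower in 1 % CTRL than in 5 % CTRL, 1 was higher on stimulation at each O2 level, and 3 were lower and none higher under 1 % O2 among the stimulated groups. Sod2, the mitochondrial superoxide dismutase, rose by 0.15 on stimulation under 5 % O2, and Cat, catalase, rose by 0.12 under 1 % O2. Of 8 genes of NADPH supply, 3 were higher and 3 lower without stimulation under 1 % O2. G6pdx, the entry enzyme of the pentose phosphate pathway, rose by 0.34, whereas Tkt, of the same pathway, fell by 0.41 and Me1, malic enzyme, fell by 0.27. Idh1 rose on stimulation at both O2 levels, by 0.23 and 0.22.

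Of 12 genes of heme and iron handling, 4 were higher and 7 lower in 1 % CTRL than in 5 % CTRL, with a median of −0.12. Por, the reductase that feeds electrons to heme oxygenase, fell by 0.50. Blvra, a biliverdin reductase gene downstream of heme oxygenase, rose by 0.44, and Blvrb, the other biliverdin reductase gene, fell by 0.36. Slc40a1, the iron exporter ferroportin, rose on stimulation by 1.09 under 5 % O2 (from 81.9 ± 11.3 to 174 ± 13.2, SD, n = 6) and by 1.57 under 1 % O2 (from 58.6 ± 2.87 to 176 ± 18.4, SD, n = 6). Its interaction of 0.48 (limma adjusted p = 0.0122) had the opposite sign to that of Hmox1. Ftl1, ferritin light chain, rose by 0.27 and 0.19, with 51.3 % of its exon sequence shared with other genes.

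The list that moved most on stimulation was that of the ATF4 stress response, with 14 of 14 genes higher under 5 % O2 and 9 higher and 1 lower under 1 % O2, and medians of 0.78 and 0.38. Atf4 itself, the transcription factor that answers amino acid shortage and several stresses, had means of 9604 ± 597 in 5 % CTRL and 6395 ± 517 in 1 % CTRL (SD, n = 6), a log2 fold change of −0.59 (limma adjusted p = 8.98e-12). Trib3, a target and feedback inhibitor, rose by 1.74 under 5 % O2 and 1.12 under 1 % O2, with an interaction of −0.63 (limma adjusted p = 3.08e-05). Cth, which makes cysteine from cystathionine, rose by 1.31 under 5 % O2, and its interaction was −1.02 (limma adjusted p = 4.06e-05), the sign seen in Slc7a11. Without stimulation 3 genes of this list were higher and 9 lower under 1 % O2, and the 2 largest rises were in Ddit4 (2.40) and Vldlr (0.94), which are known as hypoxia-induced genes as well. With stimulation 2 were higher and 11 lower under 1 % O2, with a median of −0.49.

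Of 12 genes of selective autophagy, the process in which p62 acts, 5 were higher and none lower on stimulation under 5 % O2 and 5 higher and 1 lower under 1 % O2. Gabarapl1, of the family that p62 binds on the autophagosome, rose by 0.46 and 0.54, with 20.5 % of its exon sequence shared with another gene. Map1lc3b, LC3B, rose by 0.21 under 5 % O2. Under 1 % O2 without stimulation 4 were higher and 5 lower, with Ulk1, the initiating kinase, up by 0.79 and Optn, another receptor, at −0.44.

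**Figure D4:**
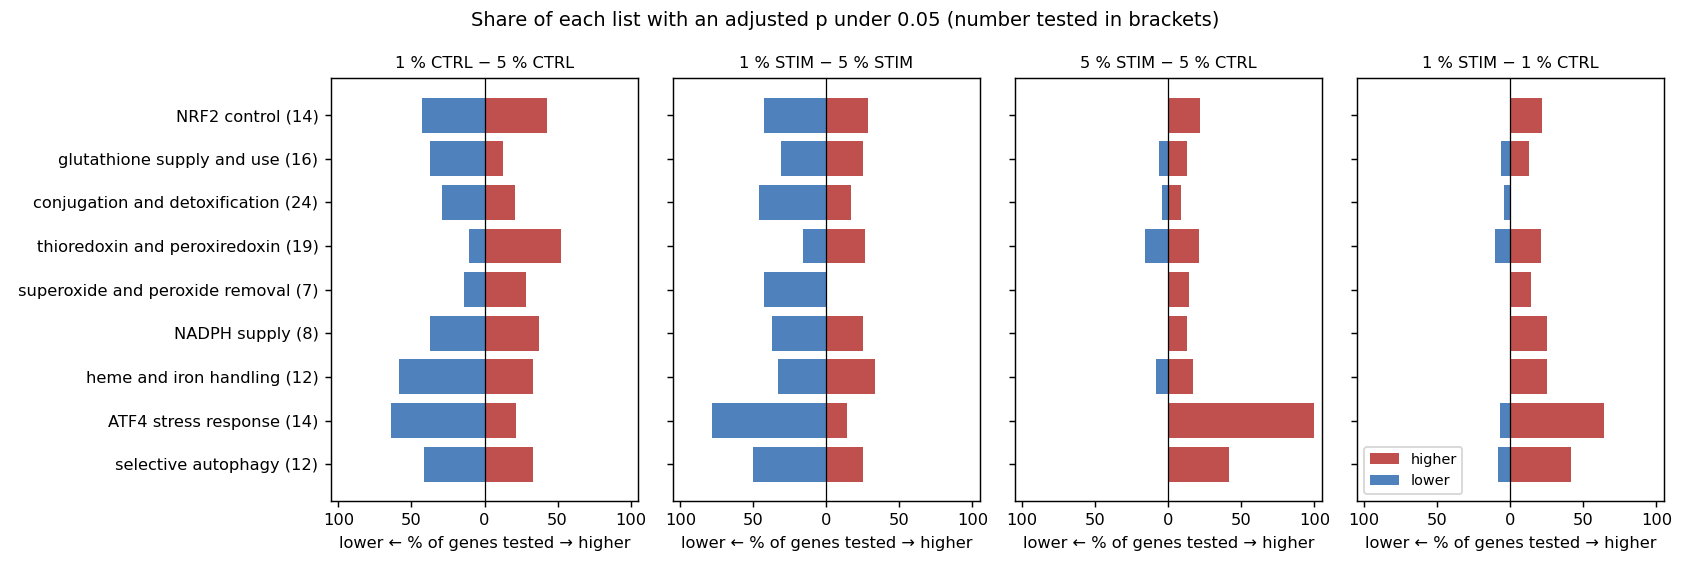
Share of each of the 9 lists called higher (red, right of 0) or lower (blue, left of 0), in percent of the genes tested (x axis; number in brackets), in 4 comparisons. The ATF4 list has 14 of 14 genes higher on stimulation under 5 % O2, and the thioredoxin and peroxiredoxin list has 10 of 19 higher in 1 % CTRL than in 5 % CTRL.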

How the data were processed

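The authors prepared stranded mRNA libraries, aligned reads to GRCm38 with STAR 2.5.4b, estimated counts per gene with RSEM 1.3.0 with default settings, under which the strand is ignored, and checked reads with FastQC 0.11.7. The deposited signal is the count divided by the DESeq2 size factor of the library, 0.955 to 0.992 in the 5 % O2 groups and 1.02 to 1.05 in the 1 % O2 groups. A second deposited file holds the authors' own log2 fold changes, statistics, p-values and calls and was not used.

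Groups followed the sample titles. The 10 genes and the 9 lists (135 genes) were chosen with earlier results of these data known. In the lists, Nnt and Ddit3 matched 2 identifiers each and were left out. Genes named from a list are drawn from the up to 4 called genes with the largest change in a comparison and a group mean that reached 100. The 3 genes most like Nfe2l2, Hmox1 and Nqo1 were found by Pearson r over 24 libraries.

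The test took genes that reached a normalized count of 10 in 6 or more libraries and used log2(normalized count + 1) with limma 3.58.1 (R 4.3.3; lmFit, contrasts.fit, eBayes with trend and robust) in a single fit of the 4 groups, at an adjusted p of 0.05, and intervals are at 95 %. Whole reads were recovered from the step between values, with 100 % of values whole within 0.05, which served edgeR 4.0.16, limma voom and DESeq2 1.42.0 as alternatives. The other alternatives were no filter, a pseudocount of 10, a block for the replicate number, each pair of groups fitted alone, equal library totals, array weights, replicate 1 of 1 % CTRL left out, a lowess trend on exon length removed (span 0.3) and an adjusted p of 0.01. Pairs of replicates had a chi-square of 2.56 or more per gene, above sampling noise. Shared exon sequence was counted in words of 75 bases. The fit was tested on simulated data with the same dispersion for all genes and changes in 1 % CTRL alone. That simulation held no library that stood apart, so it does not cover this feature of the data. Promoter sequences are from RefSeq.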

Additional observations from a re-analysis of the deposited data

Results flagged for a closer look

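A library stood apart from the other 5 of its group, by Dixon's test at its 95 % critical value for 6 values, in 5 of the 40 groups checked (10 genes in 4 groups), where chance gives about 1 in 20 groups. Nfe2l2 was high in replicate 1 of 1 % CTRL, with a normalized count of 3812. Nqo1 was high in replicate 6 of 1 % STIM, with 129. Gclc was low in the same library, with 1425. Gclm was high in replicate 1 of 5 % CTRL, with 1219. Slc7a11 was high in replicate 3 of 5 % STIM, with 1922.

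The response to stimulation differed between the O2 levels by limma's interaction term for 4 genes. The difference, taken as the response under 1 % O2 minus that under 5 % O2, was −0.63 for Hmox1, −0.96 for Slc7a11, 0.31 for Gclc and 0.25 for Gclm. The 4 calls kept their direction and stayed under an adjusted p of 0.05 in each alternative that could be fitted for them.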

How the results depend on the processing

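Of 590 values for the 50 fold changes under 12 alternatives, 564 kept their direction and their side of the threshold. The adjusted p of 0.01 reuses the main fold changes. No filter, the replicate block and pairs of groups fitted alone leave them unchanged by design. In these alternatives only the side of the threshold could change. The number of genes called higher on stimulation under 5 % O2 was 8 and fell to 5 at an adjusted p under 0.01, and it was 6 with no filter. The labels do not say whether the replicate numbers pair the libraries. Of 36 same-numbered pairs, 2 had a correlation of deviations over 0.1. For 9 of the 36, the same-numbered library was the closest of its group. Such correlations over all genes tested cannot exclude a pairing in single genes. With a replicate block, 7 genes were called on stimulation under 5 % O2, where Nqo1 was no longer called (limma adjusted p = 0.0512). On stimulation under 1 % O2 the block gave 7 higher and 1 lower, Slc7a11 (limma adjusted p = 0.0411). The share of all genes called was not counted at an adjusted p under 0.01, with no filter or with the block. Whether the counts given here for these settings moved more or less than those of all genes was thus not tested. Values that changed sign were all close to 0. That of Hmox1 without stimulation was −0.0013 with array weights, −0.00035 with DESeq2, −0.0040 without 1 % CTRL replicate 1 and −0.023 without the length trend. With libraries rescaled to the same total, Nqo1 in the same comparison was 0.011 and Osgin1 on stimulation under 1 % O2 was 0.012. The causes were not tested. Nqo1 rested on the fewest reads, 84 to 132 per library, and no leave-one-out beyond 1 % CTRL replicate 1 was run.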
